A study of Homo sapiens with 8 samples.

Results

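The interleukin-1 (IL-1) family genes examined here were the ligands IL1A, IL1B, IL18 and IL33, the antagonist IL1RN, the receptor genes IL1R1, IL1R2 and IL1RAP, and the protease gene CASP1. They were found by gene symbol and are 9 of the 61228 genes in the count tables. The set was put together around IL1B, which was chosen by its measured counts, far lower with ACBI1 than with DMSO in both cell lines; that contrast of IL1B is therefore described without a test. The libraries come from a pair of human lung cancer lines, H1975 and HCC44, both labelled WT, each as DMSO and ACBI1 groups of 2 replicates kept for 96 hours. ACBI1 is a small molecule that brings the SWI/SNF chromatin remodelling ATPases SMARCA2 and SMARCA4, and the related subunit PBRM1, to the VHL ubiquitin ligase for degradation. DMSO is its solvent, and the series title places the work in SMARCA4-mutant lung cancer and tumour immunity. The labels give the ACBI1 dose as 1 mM; this is far above the doses usual for such compounds, so the unit is uncertain. Nothing in the labels says that the 2 replicates of a group were separate cultures, so p-values measure the spread between these libraries, which may be technical. Each line is a single line, so a difference between them is a difference between these lines.

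IL-1 alpha (IL1A) and IL-1 beta (IL1B) are inflammatory cytokines that bind the same receptor, a pair of IL1R1 and the accessory chain IL1RAP, whose cytoplasmic domains recruit MYD88 and IRAK kinases and switch on NF-kB. IL1RN encodes an antagonist that occupies IL1R1 without signalling, and IL1R2 is a decoy receptor. IL-1 beta and IL-18 are made as inactive precursors that caspase-1 (CASP1) cuts inside inflammasomes, whereas the IL-1 alpha precursor is already active and is often released by damaged epithelial cells. IL-33 is a nuclear alarmin of epithelial and endothelial cells with its own receptor, IL1RL1.

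IL1A, IL1B and IL1RN lie in 1 cluster on chromosome 2, and the bases before their start sites are shown because all 3 genes were lower with ACBI1 in both lines. The sequences are the 250 bases before an annotated start, 5′ to 3′ on the gene's strand, from RefSeq on GRCh38.p14, which held 15 such windows for 7 of the 9 genes. Capitals mark matches to the AP-1 motif TGANTCA or the C/EBP motif TTGCNNAA, searched on both strands; no 2 matches overlap.
IL1A, minus strand, chr2:112784401-112784650: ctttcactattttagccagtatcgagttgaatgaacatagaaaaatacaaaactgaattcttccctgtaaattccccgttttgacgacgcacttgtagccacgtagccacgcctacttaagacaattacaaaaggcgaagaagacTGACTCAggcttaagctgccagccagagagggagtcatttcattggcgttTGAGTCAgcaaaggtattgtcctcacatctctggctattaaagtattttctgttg
IL1B, minus strand, chr2:112836780-112837029: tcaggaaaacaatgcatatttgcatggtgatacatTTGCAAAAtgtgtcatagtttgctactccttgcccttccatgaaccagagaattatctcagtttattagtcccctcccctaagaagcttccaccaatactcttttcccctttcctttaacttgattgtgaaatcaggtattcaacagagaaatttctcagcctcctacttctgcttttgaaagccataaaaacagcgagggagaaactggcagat
IL1RN, plus strand, chr2:113117721-113117970: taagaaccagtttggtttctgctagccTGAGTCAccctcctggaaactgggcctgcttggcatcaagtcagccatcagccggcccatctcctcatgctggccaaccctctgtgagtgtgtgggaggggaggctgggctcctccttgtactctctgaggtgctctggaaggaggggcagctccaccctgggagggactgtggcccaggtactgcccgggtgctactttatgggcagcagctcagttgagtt
The IL1A window held AP-1 matches that began 105 and 55 bases before the start site. The window of another IL1A start, at chr2:112784494-112784743, held the first of these matches, 12 bases before that start. The IL1B window held 1 C/EBP match, 215 bases before the start, and the printed IL1RN window held 1 AP-1 match, 223 bases before its start. IL1RN has other annotated starts. Their windows, at chr2:113127239-113127488 and chr2:113127348-113127597, held no match to the AP-1 or the C/EBP motif. Of the 15 windows, 3 held an AP-1 match: the pair for IL1A and the one printed for IL1RN. Over 35116 promoter windows of the same length, 6.57% held the AP-1 motif and 9.05% the C/EBP motif. A kappa-B motif, which 9.96% of all windows held, was not among the letters of the 3 printed windows. A match is a description of letters and not evidence of binding.

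Reads assigned to genes numbered 62467286 to 70455517 per library, so 1 read corresponded to 0.0133 to 0.016 reads per 1000000 reads (CPM) in the values below. CPM were computed on library sizes scaled by the trimmed mean of M values (TMM). Of the 10 leukocyte marker genes, CD3E had no reads in any library and the pan-leukocyte gene PTPRC had 0 to 3; the summed marker level was 12.7 to 19.8 CPM in H1975, mostly CSF1R, and 2.98 to 4.22 CPM in HCC44. Of the 4 leukocyte markers tested, CD14, a monocyte coreceptor, fell with ACBI1 in both lines (log2 fold changes of -0.89 in H1975 and -1.68 in HCC44; edgeR adjusted p 0.0411 and 0.0015). The integrin gene ITGAM rose in both (1.56 and 3.49, adjusted p 0.019 and 1.93e-04), and CSF1R rose in HCC44 (0.97, adjusted p 0.018). For ITGAM, both libraries of a group reached the level of the filter on low counts in the ACBI1 groups alone. These are the groups in which it is high, so nothing is read from the ITGAM calls. The H1975 call of CD14 was lost under 7 of 16 alternatives, that of ITGAM without DMSO replicate 2 (1.12) or ACBI1 replicate 1 (1.39), and that of CSF1R with any 1 HCC44 library left out (0.95 to 0.98). The part of these markers in the results was not tested. The summed level of 6 epithelial markers was 5130 to 5390 CPM in H1975 DMSO and 2340 to 2800 CPM in H1975 ACBI1, against 940 to 980 and 1200 to 1660 CPM in HCC44. KRT7 was the largest in all 8 libraries. Without KRT7 the sum was 517 and 521 CPM in HCC44 DMSO and 449 and 536 CPM in HCC44 ACBI1, which overlap. In H1975 it was then 2270 and 2150 CPM with DMSO and 1200 and 1040 CPM with ACBI1. The sums hide opposite changes in HCC44, where KRT7 (1.09 ± 0.17, edgeR adjusted p 0.00129) and EPCAM (0.84 ± 0.12, adjusted p 4.60e-04) rose. KRT8 fell there (-0.52 ± 0.09, adjusted p 0.00103), and CDH1, KRT18 and KRT19 were not called. The largest falls in H1975 were those of KRT18 (-1.24 ± 0.11, adjusted p 4.27e-05), KRT8 and KRT7 (both -1.07, adjusted p 2.24e-05 and 0.00185). The summed level of 8 stromal and endothelial markers was 26.1 to 72.6 CPM in H1975 and 77.6 to 413 CPM in HCC44. COL1A1 was the largest of them in each library. Fewer producing cells and less RNA per cell cannot be told apart in such bulk libraries.

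IL1B (chr2:112829751-112836903 on GRCh38, minus strand) was present in both lines with DMSO and nearly gone with ACBI1. In H1975 it had 103 and 77 reads with DMSO and 2 and 0 with ACBI1. In HCC44 it had 10747 and 7419 reads with DMSO and 38 and 11 with ACBI1. No ACBI1 library came near a DMSO library of its own line, and the HCC44 ACBI1 libraries, at 0.608 and 0.173 CPM, were also below the H1975 DMSO libraries at 1.6 and 1.14 CPM. Summed over replicates and scaled for depth, the DMSO level was 99.5 times the ACBI1 level in H1975, with an exact 95% interval of 27.1 to 828 that covers counting error only. The ratio was 369 in HCC44, with an interval of 279 to 499. The order of the 4 groups was HCC44 DMSO, H1975 DMSO, HCC44 ACBI1 and H1975 ACBI1, with no overlap between neighbours. Since IL1B was picked for this pattern, these values carry no test. The fitted log2 fold changes, -6.46 ± 0.90 (SE) in H1975 and -8.52 ± 0.44 in HCC44, moved with single libraries: without H1975 ACBI1 replicate 1 the former was -9.46 and without replicate 2 it was -5.56, and the latter was -9.68 without HCC44 ACBI1 replicate 1 and -7.88 without replicate 2.

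IL1A (chr2:112773915-112784590, minus strand), the other agonist of IL1R1, was also lower with ACBI1 in both lines, but more of it remained. H1975 had 51 and 43 reads with DMSO and 12 and 10 with ACBI1. HCC44 had 9340 and 9708 reads with DMSO and 470 and 210 with ACBI1. Neighbouring groups did not overlap in the order HCC44 DMSO (148 and 152 CPM), HCC44 ACBI1 (7.52 and 3.3 CPM), H1975 DMSO (0.792 and 0.636 CPM) and H1975 ACBI1 (0.16 and 0.141 CPM). So IL1A in ACBI1-treated HCC44 was still above its level in untreated H1975, the reverse of the order for IL1B. By the quasi-likelihood test of edgeR, with p-values adjusted by Benjamini-Hochberg over all 21307 tested genes, IL1A fell by 4.80 ± 0.34 (SE) on the log2 scale in HCC44 (adjusted p 4.63e-05); the value was -5.51 without ACBI1 replicate 1. In H1975 it fell by 2.23 ± 0.64 (adjusted p 0.0341), a call that was lost with any 1 of the 4 H1975 libraries left out, at log2 values of -2.06 and -2.33 without DMSO replicate 1 and 2 and -2.29 and -2.12 without ACBI1 replicate 1 and 2. It was also lost with the replicate number as a block (-2.23, adjusted p 0.0601).

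The balance of both IL-1 agonists therefore differed between DMSO and ACBI1 libraries. There were 0.495 and 0.558 IL1A reads for each IL1B read in H1975 DMSO, and 0.869 and 1.31 in HCC44 DMSO. With ACBI1 the ratio was 12.4 and 19.1 in HCC44. In H1975 ACBI1 replicate 1 it was 6, on 12 and 2 reads, and replicate 2 had 10 IL1A reads and none of IL1B. All 4 ACBI1 libraries thus held more IL1A than IL1B, as did 1 of the 4 DMSO libraries. Because IL1B was picked for its low ACBI1 counts, the ratio is likewise a description.

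**Figure D1:**
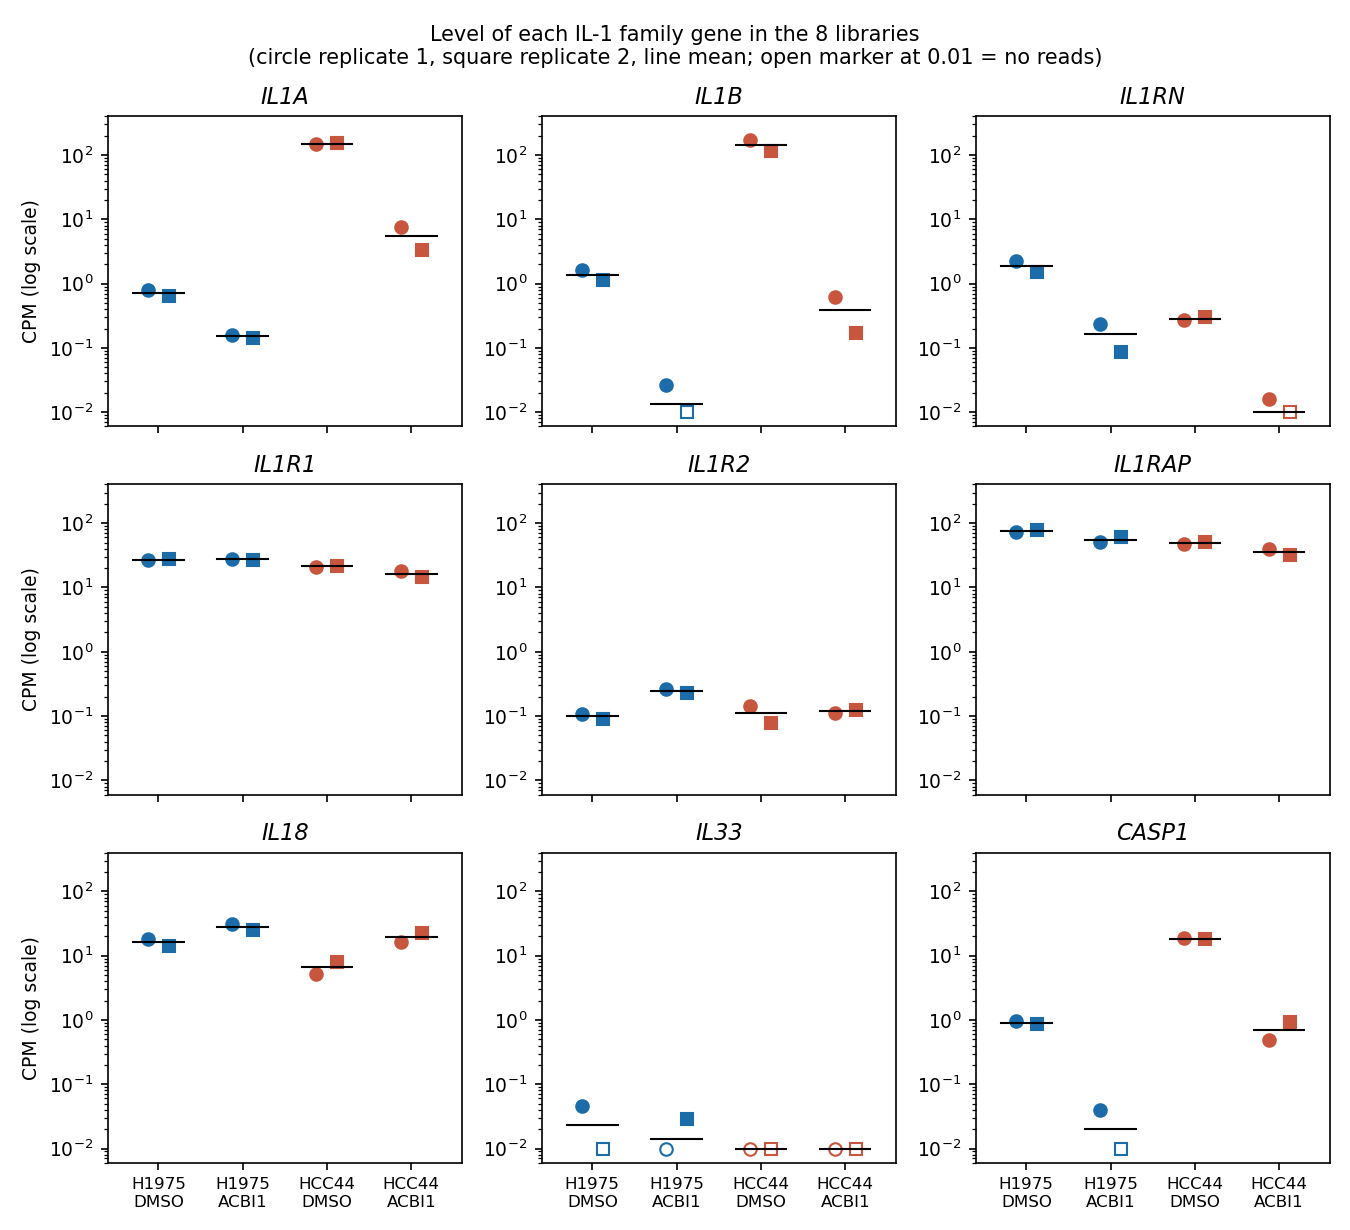
Level of each of the 9 genes in the 8 libraries, in CPM on a log axis; circles are replicate 1, squares replicate 2, and lines the mean of 2 libraries, with open markers and lines at 0.01 where no reads, or a mean below that, were found. IL1B drops from 171 and 116 CPM to 0.608 and 0.173 CPM in HCC44, CASP1 and IL1RN drop in both lines, and IL18 is higher with ACBI1 in both.

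IL18 (chr11:112143251-112164117, minus strand), an inducer of interferon gamma in lymphocytes, moved the other way and was the single member that rose. In HCC44 it stood at 5.21 and 8.01 CPM with DMSO and at 16.2 and 22.9 CPM with ACBI1. In H1975 the DMSO libraries had 18.3 and 13.9 CPM and the ACBI1 libraries 31.1 and 25.1 CPM. The groups did not overlap in either line, while HCC44 ACBI1 and H1975 DMSO, next to each other in the order of levels, did. The rise was 2.96-fold in HCC44 (log2 1.57 ± 0.25, edgeR adjusted p 0.00102) and 1.75-fold in H1975 (0.80 ± 0.24, adjusted p 0.0283). The H1975 call was lost without DMSO replicate 2 (0.67) or ACBI1 replicate 1 (0.68). IL18 overlaps AP002884.3, a protein-coding gene on the opposite strand, and the strand setting of the counting is not given in the sources used here.

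IL33 (chr9:6215786-6257983, plus strand) was all but undetected. H1975 had 3 and 0 reads with DMSO and 0 and 2 with ACBI1, a ratio of 1.66 with an exact 95% interval of 0.19 to 19.9. None of the 4 HCC44 libraries had a read, which for 3 counts over a pair of libraries allows up to 0.0237 CPM with DMSO and 0.0238 CPM with ACBI1. IL33 did not pass the filter on low counts and was not tested; the other 8 members did. IL1R2 passed it only through H1975 ACBI1, the group in which it is highest, and IL1RN had both libraries at the level in the DMSO groups alone, with either line's pair of DMSO libraries being enough to pass; the remaining 6 reached the level of the filter (0.152 CPM) in both libraries of at least 3 groups.

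IL1RN (chr2:113107214-113134016, plus strand), the natural antagonist, fell together with the agonists. H1975 had 142 and 104 reads with DMSO and 18 and 6 with ACBI1. HCC44 had few reads to begin with, 17 and 19 with DMSO, and 1 and 0 with ACBI1. The 4 groups did not overlap in the order H1975 DMSO, HCC44 DMSO, H1975 ACBI1 and HCC44 ACBI1, which for the DMSO groups is the reverse of the agonists. IL1RN was 11.3 times higher with DMSO in H1975 (exact 95% counting interval 7.44 to 18; edgeR log2 -3.50 ± 0.45, adjusted p 3.09e-04), and the log2 value was -4.40 without ACBI1 replicate 1. In HCC44 the ratio of 36 reads to 1 was 35.8, with an interval of 6.03 to 1450. The edgeR call there (adjusted p 0.00207) rests on a fitted value of -4.86 ± 0.92 that was -7.26 without ACBI1 replicate 1 and -4.00 without replicate 2.

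The signalling receptor chains changed little beside the ligands. IL1R1 (chr2:102064544-102179874, plus strand), the chain that binds both agonists, had 26.3 and 27.7 CPM in H1975 DMSO and 27.5 and 27 CPM in H1975 ACBI1, which overlap. In HCC44 it had 20.9 and 21.5 CPM with DMSO and 18.1 and 14.4 CPM with ACBI1, which do not. The log2 fold change was 0.01 ± 0.13 in H1975 (edgeR adjusted p 0.958) and -0.38 ± 0.13 in HCC44 (adjusted p 0.0401). The HCC44 call was lost under 9 of 16 alternatives, among them library totals (-0.29), HCC44 fitted alone, any 1 of the 4 H1975 libraries left out (all -0.38), HCC44 DMSO replicate 1 (-0.40) or 2 (-0.36) left out, and HCC44 ACBI1 replicate 2 left out (-0.22). The antisense gene IL1R1-AS1 overlaps it.

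IL1RAP (chr3:190514051-190659750, plus strand), the accessory chain shared with the IL-33 and IL-36 receptors, stood at 72.4 and 77.2 CPM in H1975 DMSO against 50.4 and 60.5 CPM in H1975 ACBI1. In HCC44 it stood at 48.2 and 51 CPM with DMSO and 39 and 32.3 CPM with ACBI1. DMSO was above ACBI1 in each line, and only H1975 ACBI1 and HCC44 DMSO overlapped among neighbours in the order of levels. By edgeR the log2 fold change of IL1RAP was -0.43 ± 0.12 in H1975 (adjusted p 0.0188), and HCC44 gave -0.48 ± 0.12 (adjusted p 0.0105). The H1975 call was lost with library totals (-0.23) and without DMSO replicate 2 (-0.33) or ACBI1 replicate 1 (-0.27), and the HCC44 call without DMSO replicate 2 (-0.43) or ACBI1 replicate 2 (-0.35). The gene model also overlaps GCNT1P3, RN7SKP296 and AC108747.1.

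IL1R2 (chr2:101991844-102028544, plus strand), the decoy receptor, was near the counting limit in every group. H1975 had 7 and 6 reads with DMSO and 20 and 16 with ACBI1, and HCC44 had 9 and 5 with DMSO and 7 and 8 with ACBI1. The H1975 ACBI1 libraries, at 0.266 and 0.226 CPM, were above all others, and the remaining 3 groups overlapped. ACBI1 was 2.51 times DMSO in H1975 by counts (exact 95% interval 1.3 to 5.15), but the edgeR test, which adds the spread between libraries, did not call it (log2 1.31 ± 0.50, adjusted p 0.0699). It was called with library totals (1.51, adjusted p 0.0379), but as it passed the filter only through H1975 ACBI1 nothing is read from that call. HCC44 gave 0.10 ± 0.56 (adjusted p 0.923).

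CASP1 (chr11:105025443-105035250, minus strand), the protease that matures IL-1 beta and IL-18, was strongly lower in both lines. H1975 had 61 and 58 reads with DMSO and 3 and 0 with ACBI1. HCC44 had 1183 and 1140 reads with DMSO and 31 and 58 with ACBI1. The HCC44 ACBI1 libraries (0.496 and 0.913 CPM) overlapped the H1975 DMSO libraries (0.947 and 0.858 CPM), and all other neighbours in the order were apart. The ratio of DMSO to ACBI1 was 43.8 in H1975 (exact 95% interval 14.6 to 216) and 26 in HCC44 (21 to 32.5). CASP1 fell by 4.70 ± 0.32 on the log2 scale in HCC44 (edgeR adjusted p 3.80e-06). In H1975 the fitted value was -5.33 ± 0.59 (adjusted p 1.20e-04), on 3 ACBI1 reads; it was -8.86 without ACBI1 replicate 1 and -4.41 without replicate 2. CARD16, a neighbouring gene that resembles part of CASP1, can share reads with it, so the split between both is uncertain.

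Of the 7 tested members other than IL1B, 5 were called in H1975: IL18 rose, and IL1A, IL1RN, IL1RAP and CASP1 fell. Over all tested genes, 31.3% were called in H1975, 14.6% as higher and 16.7% as lower. In HCC44 6 were called, the same 5 in the same directions and IL1R1 as lower, where 34.9% of all tested genes were called, 17.5% as higher and 17.4% as lower. The set was assembled with these results known, so nothing is read from the counts. Without H1975 DMSO replicate 2, or without H1975 ACBI1 replicate 1, 2 members were called in H1975, and with other single libraries left out up to 5. In HCC44 it was 4 without DMSO replicate 2 or ACBI1 replicate 2. IL1RN and CASP1 in both lines, and IL1A and IL18 in HCC44, were called under each of the 16 alternatives, the one without the filter on low counts included.

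**Figure D2:**
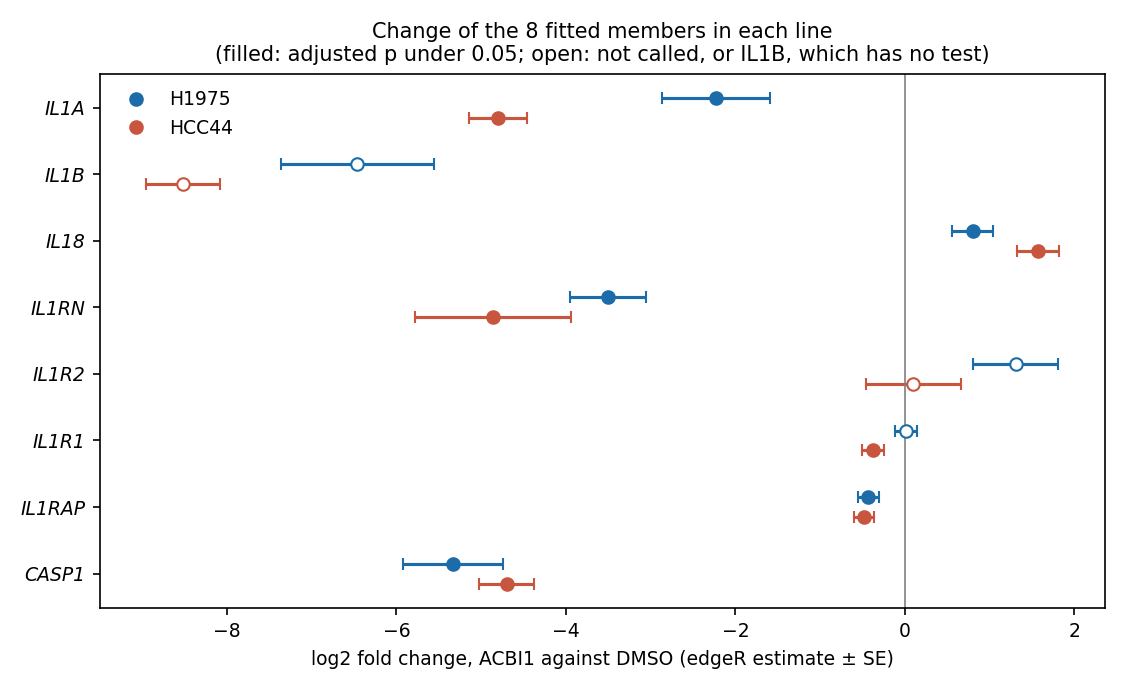
Fitted log2 fold change, ACBI1 against DMSO, with its standard error, of the 8 members that passed the filter on low counts; blue is H1975, red is HCC44, filled points have an edgeR adjusted p under 0.05 and open points do not, or are IL1B, which was not tested. IL1A, IL1B, IL1RN and CASP1 lie between -8.52 and -2.23, the receptor genes between -0.48 and 1.31, and IL18 at 0.80 and 1.57.

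The lines also differed in the family before treatment, a comparison that was not used to pick the genes although it shares the DMSO libraries with those above. HCC44 DMSO had 210 times the IL1A (log2 7.72 ± 0.41, edgeR adjusted p 1.19e-06), 105 times the IL1B (6.71 ± 0.39, adjusted p 1.88e-06) and 20.3 times the CASP1 (4.34 ± 0.31, adjusted p 3.61e-07) of H1975 DMSO. The antagonist IL1RN was lower in HCC44 by a log2 value of -2.71 ± 0.43 (adjusted p 1.81e-04) and IL18 by -1.28 ± 0.25 (adjusted p 0.00105). IL1RAP was at -0.59 ± 0.12 (adjusted p 0.00105) and IL1R1 at -0.35 ± 0.13 (adjusted p 0.0302); the IL1R1 call was lost without either H1975 DMSO library (-0.39 and -0.26), either H1975 ACBI1 library (both -0.32) or either HCC44 DMSO library (-0.33 and -0.37). IL1R2 was not called (0.16 ± 0.57, adjusted p 0.811). In all, 7 of the 8 tested members were called, 3 higher and 4 lower in HCC44, where 67.9% of all tested genes were called, 31.6% higher and 36.4% lower.

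Per kilobase of annotated exon, which allows levels of different genes to be set side by side, IL1A (70.6 ± 1.3 CPM per kb, SD, n = 2) and IL1B (46.4 ± 13) were far above the other members in HCC44 DMSO. CASP1 followed at 4.96 ± 0.17, IL1RAP at 4.29 ± 0.17, IL1R1 at 2.99 ± 0.06 and IL18 at 2.52 ± 0.75, and the antagonist IL1RN was at 0.0872 ± 0.0061 CPM per kb. In H1975 DMSO the order was another: IL1RAP (6.47 ± 0.29) and IL18 (6.13 ± 1.2) came first and IL1R1 (3.81 ± 0.14) next. IL1RN (0.576 ± 0.15), IL1B (0.443 ± 0.11) and IL1A (0.336 ± 0.052) lay close together there, with the antagonist at the level of its competing agonists. With ACBI1, IL18 had the highest level per kb in both lines, 10.7 ± 1.6 in H1975 and 7.44 ± 1.8 in HCC44.

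No member's response was called as different between the lines by the edgeR test of the difference (HCC44 response minus H1975 response), which called 18.6% of all tested genes, 10.2% as higher and 8.4% as lower in HCC44. At an unadjusted edgeR p under 0.05 there were 2, IL1A (-2.57 ± 0.87, adjusted p 0.0805) and IL18 (0.76 ± 0.34, adjusted p 0.154), and DESeq2 called 1, IL1A (-2.59, adjusted p 0.00272). IL1A was called too without HCC44 ACBI1 replicate 1 (-3.28) or replicate 2 (-2.09), and IL1R1 (-0.39 ± 0.18, adjusted p 0.161) without the former (-0.57). The difference was -1.36 ± 1.20 for IL1RN (adjusted p 0.482), 0.64 ± 0.80 for CASP1 (adjusted p 0.637), -1.20 ± 0.76 for IL1R2 (adjusted p 0.31) and -0.04 ± 0.17 for IL1RAP (adjusted p 0.911). With 2 libraries in a group, the missing calls do not show that the lines responded alike.

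IL1A, IL1B and IL1RN sit in the IL-1 ligand cluster, 360 kb on chromosome 2 between the tested neighbours CKAP2L and PSD4. Neither neighbour was called as lower: CKAP2L was at a log2 fold change of -0.07 ± 0.38 in H1975 (edgeR adjusted p 0.922) and rose by 1.77 ± 0.40 in HCC44 (adjusted p 0.0129), and PSD4 was at -0.13 ± 0.13 (adjusted p 0.489) and rose by 0.54 ± 0.14 (adjusted p 0.0126). These HCC44 calls were lost without ACBI1 replicate 2 (1.61 and 0.38), that of CKAP2L also without the filter (1.77) and with HCC44 fitted alone (1.78), and that of PSD4 without DMSO replicate 2 (0.41). IL36RN, an antagonist gene of the IL-36 receptor inside the cluster, fell in H1975 (1.91 and 1.55 CPM with DMSO, 0.439 and 0.382 CPM with ACBI1; -2.07 ± 0.34, adjusted p 0.00171). In HCC44 it had 1 read in 4 libraries. IL36B, whose counts in HCC44 were 14 and 23 with DMSO and 7 and 1 with ACBI1, was the other called gene of the cluster (-2.17 ± 0.71, adjusted p 0.0363); it was singled out after its values were seen. It passed the filter only through HCC44 DMSO, the group in which it is highest, and was called without the filter too (-2.16). The call was lost without DMSO replicate 1 (-2.47) or 2 (-1.78) or ACBI1 replicate 2 (-1.37), and the value was -4.06 without ACBI1 replicate 1.

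The receptor cluster spans 461 kb of the same chromosome. IL1R2, IL1R1, IL1RL2 and IL1RL1 lie on it in that order, between the tested neighbours MAP4K4 and SLC9A4. MAP4K4, a kinase gene, fell in H1975 (-0.86 ± 0.11, edgeR adjusted p 3.04e-04) and in HCC44 (-0.35 ± 0.11, adjusted p 0.0314), the latter call being lost with library totals (-0.25) and without DMSO replicate 2 (-0.23) or ACBI1 replicate 1 (-0.22). SLC9A4 was not called in either line. IL1RL1, the IL-33 receptor, fell in both lines although its ligand was nearly absent. The H1975 libraries had 17.9 and 10.4 CPM with DMSO against 2.58 and 0.636 CPM with ACBI1. Those of HCC44 had 1.4 and 1.03 CPM against 0.096 and 0.0787 CPM. Its log2 fold change was -3.13 ± 0.57 in H1975 (edgeR adjusted p 0.00514; -4.43 without ACBI1 replicate 1, -2.42 without replicate 2). In HCC44 it was -3.77 ± 0.89 (adjusted p 0.0132), and the call was lost without ACBI1 replicate 1 (-3.92) or 2 (-3.64). IL18R1, which overlaps IL1RL1, was not called in either line.

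**Figure D3:**
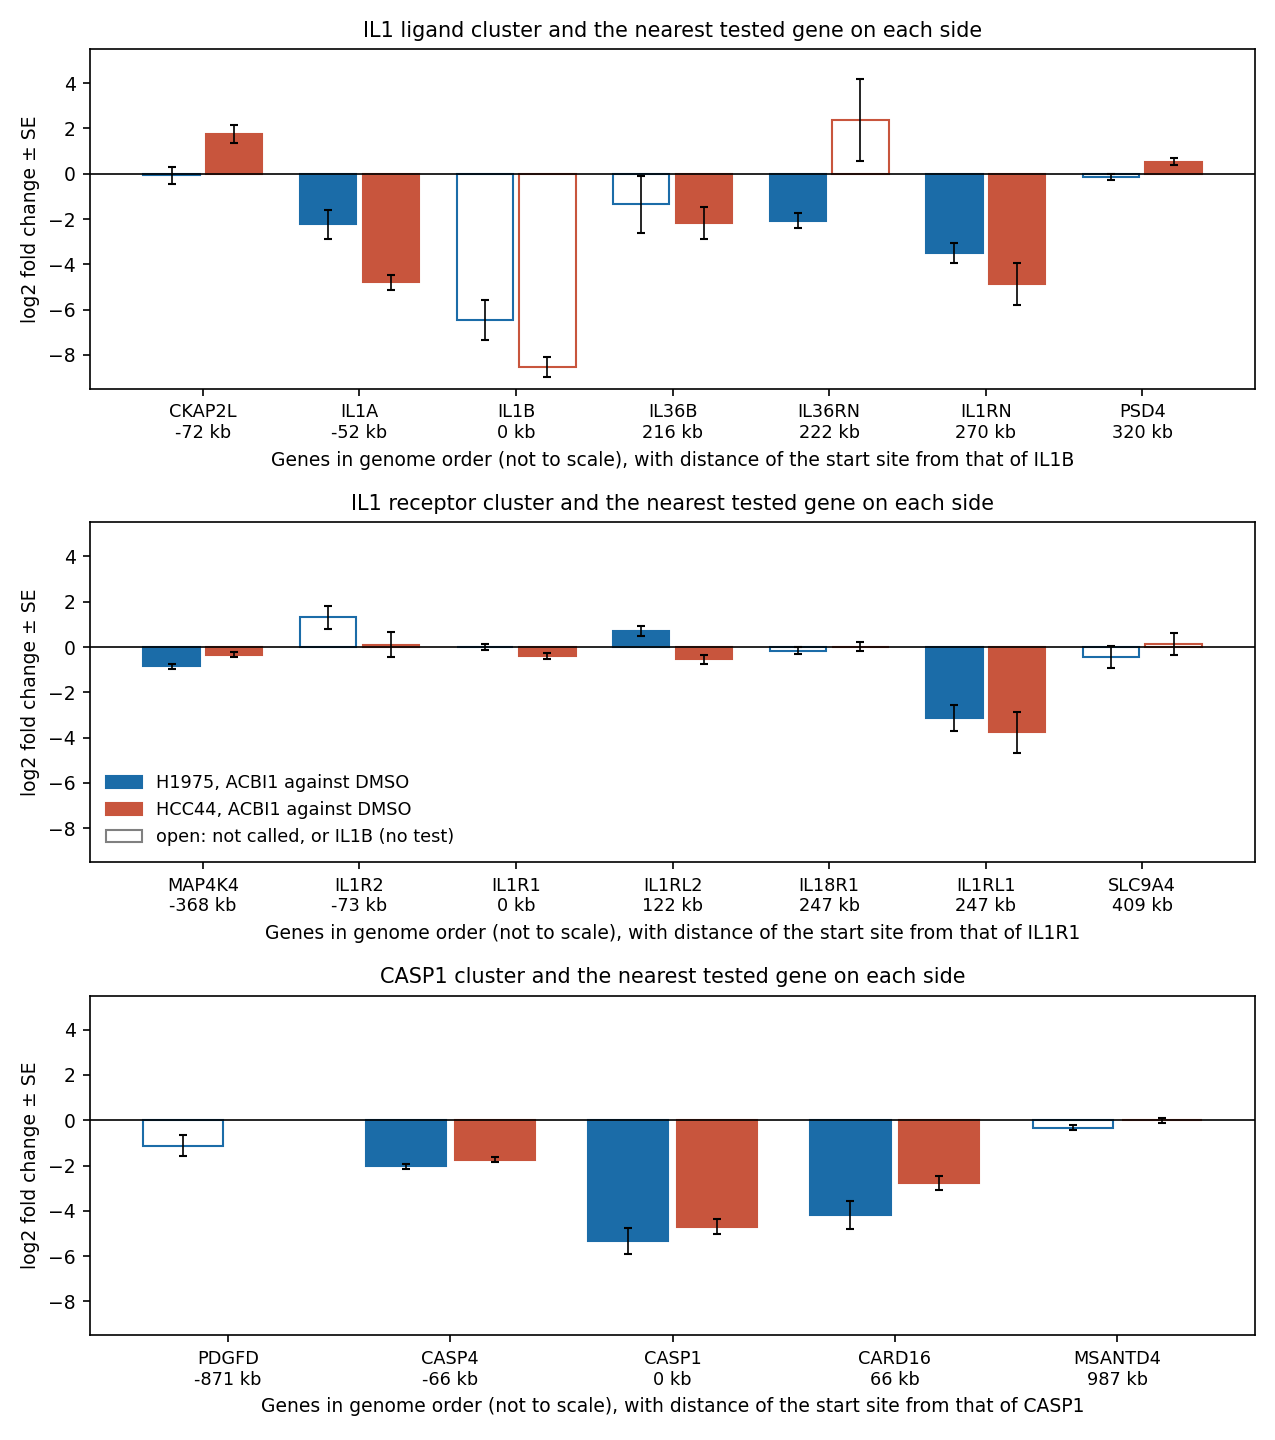
Fitted log2 fold change with standard error of the tested genes of the IL-1 ligand cluster, the IL-1 receptor cluster and the CASP1 cluster, with the nearest tested gene on each side, in genome order (spacing not to scale; distance between start sites under each name); blue is H1975, red HCC44, open bars were not called or are IL1B, and no bar is drawn where a line had no reads. In the top panel the bars of IL1A, IL1B and IL1RN reach from -2.23 to -8.52, between CKAP2L and PSD4 at -0.13 to 1.77; in the bottom panel CASP4, CASP1 and CARD16 are all below 0.

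CASP1 lies in a cluster with CASP4, the caspase that senses lipopolysaccharide inside cells, and CARD16, a decoy that binds caspase-1. CASP5, between CASP4 and CASP1, did not pass the filter. Its counts summed to 7 with DMSO and 4 with ACBI1 in H1975, and to 18 and 0 in HCC44. The tested neighbours PDGFD (-1.13 ± 0.47, edgeR adjusted p 0.101) and MSANTD4 (-0.32 ± 0.13, adjusted p 0.0936) were not called in H1975. MSANTD4 was not called in HCC44 either (-0.01 ± 0.13, adjusted p 0.966). CASP4 fell from 79.4 and 81.2 CPM to 20.7 and 18.6 CPM in H1975 and from 175 and 174 CPM to 57.4 and 47.4 CPM in HCC44. Its log2 fold changes were -2.03 ± 0.11 (edgeR adjusted p 2.65e-06) and -1.74 ± 0.11 (adjusted p 2.12e-06). CARD16 fell in HCC44 from 3.27 and 3.42 CPM to 0.592 and 0.378 CPM (-2.78 ± 0.30, adjusted p 6.48e-05), and in H1975 it had 21 and 16 reads with DMSO and 1 and 1 with ACBI1.

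Of the genes of the inflammasome and its processing steps other than CASP1, 16 were found by symbol and 13 tested. In H1975 9 fell and none rose, where 16.7% of all tested genes fell and 14.6% rose. In HCC44 7 fell and 1 rose, where 17.4% of all tested genes fell and 17.5% rose. The median log2 fold change was -0.54 and -1.08, against -0.01 and 0.01 over all tested genes. The list was chosen with earlier results of these data known. It also holds CASP4 and CARD16, from the same cluster as CASP1. Nothing is therefore read from these counts and medians. NLRP1, an inflammasome sensor of epithelial cells, fell in H1975 from 29 and 26.7 CPM to 11.8 and 11.8 CPM (-1.23 ± 0.11, edgeR adjusted p 4.32e-05), and GSDME, a pore-forming gasdermin, from 10.3 and 10 CPM to 4.64 and 4.58 CPM (-1.14 ± 0.11, adjusted p 4.78e-05). NLRC4, the sensor adaptor for bacterial flagellin, fell in HCC44 from 1.81 and 1.32 CPM to 0.08 and 0.0472 CPM (-4.58 ± 0.59, adjusted p 2.00e-04). It passed the filter only through HCC44 DMSO, the group in which it is high, and was called without the filter too. CARD8, another sensor, rose there by 0.47 ± 0.11 (adjusted p 0.00857), a call lost without DMSO replicate 2 (0.44). NLRP3, the sensor best known for IL-1 beta release in myeloid cells, had 0 to 2 reads per library and was not tested. Down in both lines were 6 of the 13: NLRP1, AIM2, CARD16, CASP4, GSDME and NINJ1. The share of all tested genes down in both lines is not given here, so nothing is read from that count.

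Of 18 signalling genes just below the receptor, all tested, 6 fell and 1 rose in each line, with medians of -0.22 in H1975 and -0.24 in HCC44 against -0.01 and 0.01 over all tested genes. Since 31.3% and 34.9% of all tested genes were called, 7 of 18 in either direction is near the background and is no result about this list. By direction, 16.7% of all tested genes fell and 14.6% rose in H1975, and 17.4% fell and 17.5% rose in HCC44. The list was chosen with earlier results of these data known, so nothing is read from its counts by direction. MYD88, the adaptor of the IL-1 receptor, fell from 51.8 and 50.3 CPM to 26.9 and 24.2 CPM in H1975 and from 22.9 and 21.3 CPM to 11.8 and 12.8 CPM in HCC44. The groups did not overlap in either line, and the log2 fold changes were -1.0 ± 0.11 (edgeR adjusted p 1.22e-04) and -0.85 ± 0.11 (adjusted p 2.41e-04). IKBKG, the regulatory subunit of the IKK complex, fell in HCC44 (-0.88 ± 0.17, adjusted p 0.00295) and in H1975 (-0.71 ± 0.17, adjusted p 0.0115), the latter call being lost with library totals (-0.50) and without H1975 DMSO replicate 1 (-0.57) or ACBI1 replicate 2 (-0.54). In H1975 the ubiquitin ligase gene PELI3 fell by 0.93 ± 0.13 (adjusted p 6.14e-04), and IRAK4, the kinase that starts the cascade, rose by 0.82 ± 0.13 (adjusted p 8.12e-04). In HCC44 IRAK3, an inhibitory member of the same family, rose by 0.67 ± 0.14 (adjusted p 0.00368), and IRAK2 fell by 0.47 ± 0.12 (adjusted p 0.0123), which was not called without DMSO replicate 2 or ACBI1 replicate 1 (both -0.34).

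The other ligand and antagonist genes of the family were mostly silent or low. Among the other receptors, IL18R1, IL1RAPL1 and IL1RL1 had means of 18.1, 19 and 14.1 CPM in H1975 DMSO. IL1RL2 and SIGIRR had 16.6 and 26.1 CPM in HCC44 DMSO, while IL18RAP and IL1RAPL2 did not pass the filter. Of 7 other ligand and antagonist genes 3 were tested, IL36B, IL36RN and IL18BP. The first fell in HCC44 and the next in H1975, as given above. IL18BP, with group means of 7.43 to 12.7 CPM, was not called in H1975 (0.13 ± 0.26, edgeR adjusted p 0.754) or HCC44 (0.07 ± 0.26, adjusted p 0.874). Of 7 other receptor genes 5 were tested. In H1975 2 fell and 1 rose, and in HCC44 3 fell, with medians of -0.16 and -0.54 against -0.01 and 0.01 over all tested genes. Of all tested genes 16.7% fell and 14.6% rose in H1975, and 17.4% fell and 17.5% rose in HCC44. Nothing is read from counts on lists this short. IL1RL2, the IL-36 receptor, was the one that went in opposite directions. It rose in H1975 from 2.1 and 1.97 CPM to 3.09 and 3.58 CPM (0.71 ± 0.21, edgeR adjusted p 0.0239) and fell in HCC44 from 17.7 and 15.5 CPM to 13.4 and 9.44 CPM (-0.54 ± 0.19, adjusted p 0.0466). The H1975 call was lost without DMSO replicate 1 (0.76) or 2 (0.72) or ACBI1 replicate 2 (0.63). The HCC44 call was lost with library totals (-0.45), a filter of 1 CPM in 2 libraries (-0.52), HCC44 fitted alone (-0.53), without either HCC44 DMSO library (-0.44 and -0.63), without HCC44 ACBI1 replicate 2 (-0.31) and without either H1975 DMSO library (both -0.54). IL1RAPL1, a relative of the accessory chain found in neurons, fell in H1975 (-0.89 ± 0.25, adjusted p 0.0224), a call lost with library totals (-0.68), without either H1975 DMSO library (-0.88 and -0.84) and without ACBI1 replicate 2 (-0.69). In HCC44, where it had 37 and 71 reads with DMSO and 10 and 23 with ACBI1, it fell too (-1.70 ± 0.40, adjusted p 0.00799), a call lost without DMSO replicate 2 (-1.16) or ACBI1 replicate 1 (-1.23).

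Genes that IL-1 is known to induce through NF-kB did not move as 1 block. Of 22 such genes, all tested, 8 fell and 3 rose in H1975 and 8 fell and 5 rose in HCC44, with medians of -0.49 and -0.39 against -0.01 and 0.01 over all tested genes. Of all tested genes 16.7% fell and 14.6% rose in H1975, and 17.4% fell and 17.5% rose in HCC44. This list too was chosen with earlier results known, so nothing is read from its share of falls or its medians. LCN2, a secreted iron-trapping protein, fell from 596 and 397 CPM to 53.8 and 17.4 CPM in HCC44 (-3.80 ± 0.60, edgeR adjusted p 0.00271; -4.84 without ACBI1 replicate 1, -3.21 without replicate 2), a call lost with HCC44 fitted alone (-3.80, adjusted p 0.0588). The granulocyte growth factor CSF3 fell there from 254 and 185 CPM to 14 and 5.44 CPM (-4.50 ± 0.44, adjusted p 2.97e-04; -5.33 without ACBI1 replicate 1), and CSF2 from 10.4 and 11.4 CPM to 2.16 and 0.818 CPM (-2.87 ± 0.44, adjusted p 0.00101; -3.73 without ACBI1 replicate 1). In H1975 the chemokine CXCL8 fell from 69.9 and 49.6 CPM to 14.6 and 11.6 CPM (-2.19 ± 0.38, adjusted p 0.00485), a call lost without the filter (-2.19) and without DMSO replicate 1 (-1.92) or ACBI1 replicate 1 (-2.33) or 2 (-2.00). H1975 calls of LCN2 (-3.37 ± 0.69, adjusted p 0.00993) and of the NF-kB cofactor NFKBIZ (-1.82 ± 0.46, adjusted p 0.0225) were lost without the filter and with any 1 H1975 library left out, the latter at values between -3.81 and -2.68 and between -2.15 and -1.37.

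Against these, BIRC3, an NF-kB target that restrains cell death, rose in both lines. It went from 4.58 and 3.62 CPM to 14.2 and 11.6 CPM in H1975 (1.65 ± 0.16, edgeR adjusted p 7.58e-05) and from 100 and 124 CPM to 736 and 841 CPM in HCC44 (2.82 ± 0.15, adjusted p 1.23e-06). The chemokine CXCL5 rose in H1975 from 0.932 and 0.784 CPM to 1.77 and 2.64 CPM (1.36 ± 0.22, adjusted p 0.00116). In HCC44 CXCL1 (1.14 ± 0.33, adjusted p 0.0336) and the prostaglandin synthase PTGS2 (0.84 ± 0.24, adjusted p 0.0314) rose. The CXCL1 call was lost with DESeq2 (1.13), without the filter, with HCC44 fitted alone (both 1.14), without HCC44 DMSO replicate 2 (1.01), HCC44 ACBI1 replicate 1 (0.70) or either H1975 ACBI1 library (both 1.14), and that of PTGS2 without HCC44 DMSO replicate 2 (0.68) or ACBI1 replicate 1 (0.97) or 2 (0.70). NFKBIA, the NF-kB inhibitor and singled out after its values were seen, fell in H1975 (-0.61 ± 0.15, adjusted p 0.0121) and rose in HCC44 (0.46 ± 0.15, adjusted p 0.0346). Its H1975 call was lost with library totals (-0.40) and without DMSO replicate 1 (-0.34) or ACBI1 replicate 2 (-0.45), and its HCC44 call with any 1 HCC44 library left out (0.40 to 0.52). With DMSO, 19 of the 22 genes were higher in HCC44 and 1 was lower, with a median of 3.15 on the log2 scale against -0.08 over all tested genes. Of all tested genes 31.6% were higher and 36.4% lower in HCC44 in that comparison. For CCL20, CSF3, SAA1 and SAA2 both libraries of a group reached the filter's level in HCC44 alone, where they are high. For CCL2, the lower gene, this held in H1975 alone. Nothing is read from the calls of these genes between the lines.

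Over the 5 lists of other IL-1 pathway genes, 61 genes were tested. In H1975 26 fell and 5 rose, and in HCC44 25 fell and 7 rose. Of all tested genes 31.3% and 34.9% were called, 16.7% and 17.4% as lower and 14.6% and 17.5% as higher. The lists were chosen with earlier results of these data known, so nothing is read from the counts in each line. Both libraries of just 1 group reached the filter's level for 2 of the 61, IL36B and NLRC4. Of the 61, 14 fell in both lines, 2 rose in both (CXCL5 and BIRC3), 2 went in opposite directions (IL1RL2 and NFKBIA) and 16 were called in neither. The matching shares of all tested genes over both lines are not given here, so nothing is read from these counts over both lines. The count called in H1975 was 17 without ACBI1 replicate 2 and 20 without DMSO replicate 1, against 31 with all libraries.

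**Figure D4:**
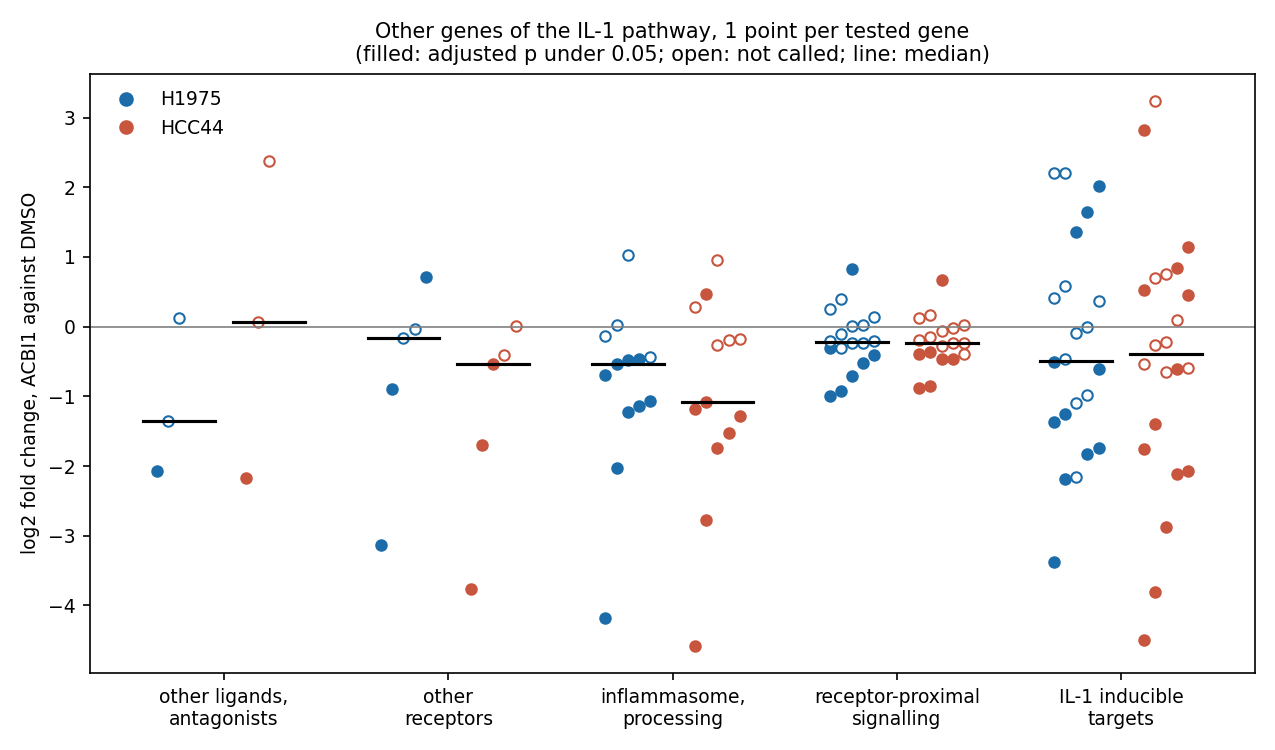
Fitted log2 fold change, ACBI1 against DMSO, of each tested gene in the 5 lists of other IL-1 pathway genes; blue is H1975, red is HCC44, filled points have an edgeR adjusted p under 0.05 and black lines are medians. The inflammasome genes have medians of -0.54 and -1.08, the signalling genes of -0.22 and -0.24, and the IL-1 inducible genes spread from -4.50 to 3.24.

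The genes whose level followed that of IL1B most closely over the 8 libraries, by Pearson's r of log2(CPM + 1) among the 12665 genes that reach a mean of 5 CPM in some group, were KLHL30-AS1 (0.997), SIRPB1 (0.996), METRNL (0.992), PNPLA1 (0.991) and ADGRG3 (0.990). These are descriptions, since the genes were picked for the value and the 8 libraries fall into 4 groups, with IL1B high in 1 of them. In HCC44 DMSO and ACBI1 the group means were 12.2 and 0.184 CPM for KLHL30-AS1, 5.44 and 0.414 CPM for SIRPB1, 24.7 and 0.278 CPM for PNPLA1 and 22.3 and 0.238 CPM for ADGRG3. The cytokine-like METRNL differed less there, 53.7 and 13.1 CPM, and stood at 16.7 and 12 CPM in H1975. KLHL30-AS1 is antisense to another gene, so its reads cannot be assigned to a strand with certainty here.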

How the data were processed

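RNA-seq of 8 libraries was used as deposited: the authors' counts of reads per gene, 1 table per library, made with TopHat2 2.1.1 and HTSeq 0.11.0 on hg38, per the submitters' processing notes. The annotation and the strand setting are not given in the sources used here. The tables list 61228 genes; their 5 summary rows (14.3 to 15.8% of each total) were left out.

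Tests used edgeR 4.0.16 under R 4.3.3. The function filterByExpr, given the 4 groups, retained 21307 genes, and TMM factors scaled the libraries. All 8 libraries shared 1 fit of group means (4 residual degrees of freedom, biological coefficient of variation 0.123). Two-sided quasi-likelihood F-tests with robust dispersion were adjusted by Benjamini-Hochberg over all tested genes, and genes with an adjusted p under 0.05 are named as called, risen or fallen. The standard error is the log2 fold change divided by the square root of F. Count ratios use exact conditional binomial intervals at the 95% level, with a floor of 3 counts over a group. Replicates differed by more than sampling noise (chi-square per degree of freedom 21.7 to 43.5).

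All members are reported. Single changes of the stromal and endothelial markers are not given. From each remaining list the text names up to 3 called genes with the largest rise and 3 with the largest fall per line. These genes have a group mean of at least 1 CPM. The 5 genes most like IL1B and the nearest tested genes beside the clusters are named as well. IL36B, IL1RAPL1 and CSF1R in HCC44, NFKBIA, and ITGAM in H1975 fall outside this rule and were named after their values were seen. The members, lists and rules were chosen with earlier results of these data known. Coordinates and exon lengths are from GENCODE release 29 on GRCh38. The procedure was tested on simulated data.

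Alternatives were DESeq2 1.42.0, RLE factors, unscaled library totals, a block for the replicate number, dispersion without the robust option, separate fits per line, no filter or one of 1 CPM in 2 libraries, and leaving out each library in turn; a lone library of a group is then assumed to vary like the other groups. Figures were drawn with matplotlib 3.10.9.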

Additional observations from a re-analysis of the deposited data

Results flagged for a closer look

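The edgeR test of the difference between the lines (HCC44 response minus H1975 response, log2, adjusted over all tested genes) called 7 of the named pathway genes. The named genes had been picked by their calls or values in each line. Over all 61 tested pathway genes 12 were called, near the share of 18.6% among all tested genes. These counts are therefore no result about the pathway. BIRC3 rose more in HCC44 (1.16 ± 0.21, adjusted p 0.00493). NFKBIA went down in H1975 and up in HCC44 (1.07 ± 0.21, adjusted p 0.00733). PTGS2 was higher with ACBI1 in HCC44 and not called in H1975 (1.31 ± 0.35, adjusted p 0.0396). PELI3 fell in H1975 and not by the test in HCC44 (0.68 ± 0.20, adjusted p 0.0365). The reverse sign was seen for IRAK4 (-0.97 ± 0.18, adjusted p 0.00468), which rose in H1975, for IL1RL2 (-1.25 ± 0.28, adjusted p 0.0118), which rose in H1975 and fell in HCC44, and for CXCL5 (-0.83 ± 0.26, adjusted p 0.0487), which rose more in H1975. BIRC3, NFKBIA and IRAK4 were called under all 15 alternatives. IL1RL2 was lost without HCC44 DMSO replicate 1 (-1.15). The calls of PELI3 were lost with library totals (0.57) and with any 1 library left out other than HCC44 ACBI1 replicate 1 (0.56 to 0.78). The call of CXCL5 was lost with non-robust dispersion and without either H1975 DMSO library (-0.96 and -0.76), H1975 ACBI1 replicate 2 (-0.54), either HCC44 DMSO library (-0.91 and -0.74) or HCC44 ACBI1 replicate 2 (-0.72). The call of PTGS2 was lost with library totals (1.19) and without H1975 DMSO replicate 1 (1.03), HCC44 DMSO replicate 2 (1.15) or HCC44 ACBI1 replicate 1 (1.44) or 2 (1.17). PSD4, the neighbour of the ligand cluster, was also called in this test (0.67 ± 0.19, adjusted p 0.0355); the call was lost with library totals (0.56), without H1975 DMSO replicate 1 (0.55), without H1975 ACBI1 replicate 1 (0.68) or 2 (0.60), and without HCC44 DMSO replicate 2 (0.54) or HCC44 ACBI1 replicate 2 (0.51). MAP4K4, the neighbour of the receptor cluster, fell less in HCC44 (0.51 ± 0.16, adjusted p 0.0424); the call was lost with RLE factors and DESeq2 (both 0.48), with library totals (0.40) and with any 1 library left out other than HCC44 DMSO replicate 2 or HCC44 ACBI1 replicate 1 (0.38 to 0.57).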

How the results depend on the processing

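Members called other than IL1B numbered 5 in H1975 (2 to 5 with single libraries left out, 4 to 5 otherwise) and 6 in HCC44 (4 to 6, and 5 to 6). None was called in the difference between the lines; it was 1 without the filter (IL18, 0.77), 1 with the replicate block (IL18, 0.77), 1 with non-robust dispersion (IL1A), 1 with DESeq2 (IL1A), and 0 to 2 with single libraries left out. In the DMSO comparison 7 were called (6 to 7). Pathway genes called were 31 in H1975 (17 to 34 with single libraries left out), 32 in HCC44 (22 to 31) and 12 in the difference (6 to 12, 6 without HCC44 DMSO replicate 2 and 7 without replicate 1). With all libraries, 31.3% of all tested genes were called in H1975, 34.9% in HCC44 and 18.6% in the difference. Library totals in place of TMM moved the median gene by 0.203 in H1975 and 0.091 in HCC44.

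Signs changed for some values near 0, none of them called: with single libraries left out, IL1R1 in H1975 ran from -0.02 (without DMSO replicate 1) to 0.10, IL1R2 in HCC44 from -0.26 (without DMSO replicate 2) to 0.59 and between the DMSO groups from -0.32 (without HCC44 DMSO replicate 1) to 0.53. In the difference between the lines IL1RAP ran from -0.20 to 0.08, at 0.00, 0.07 and 0.08 without H1975 DMSO replicate 1, H1975 ACBI1 replicate 2 and HCC44 ACBI1 replicate 2, and CASP1 from -0.29 (without H1975 ACBI1 replicate 2) to 4.16 (without replicate 1). CKAP2L in H1975 was at 0.14 with library totals and ran from -0.24 to 0.14 with single libraries left out, positive without DMSO replicate 1 (0.06) or ACBI1 replicate 2 (0.14), and PSD4 there was at 0.07 with library totals. The cause was not tested.

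The replicate numbers give 2 pairs per line by number alone, and deviations of same-numbered libraries correlated at 0.642 in H1975 and 0.224 in HCC44. With the number as a block, pathway calls were 38, 44 and 21 in H1975, HCC44 and the difference, and members called were 4, 6 and 1. In the same order, 9103, 9533 and 6358 of the 21307 tested genes were called with the block.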
